A study of Mus musculus with 6 samples.

Results

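The genes described here lie side by side on mouse chromosome 15, from Cpne8 to Adcy6, in the stretch that ends shortly before Ddn, the gene of dendrin that was inactivated in these mice. The stretch runs from chr15:90487481-98610287 in the GRCm38.p6 annotation, is 8.12 Mb long, and ends 0.193 Mb before the start of Ddn. A list of 40 genes was given, and a gene entered when the annotation of the array assigned a probe set to it alone. This left 37 genes with 78 probe sets, of the 18194 genes and 45101 probe sets in the series. Irak4 and Zfp641 were paired with no probe set here, and for Twf1 only 3 probe sets that also name another gene were found, which were not used. The list was chosen by position and with the knockout against control differences of these same arrays in view, so the differences below were already used in the choice and are given as a description, with no test of the members.

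Isolated glomeruli of 3 dendrin knockout and 3 littermate control mice, all 13 months old, were profiled on Affymetrix Mouse Genome 430 2.0 arrays, with 1 array per mouse. In the knockout mice (genotype Dendrin KO) the coding sequence of both dendrin exons was replaced in every cell by eGFP with a neomycin resistance cassette, and the controls carried the wild-type gene. The labels give the background of both groups as 129S6SvEv/C57BL6. The line came from targeted embryonic stem cells of that mixed origin and was bred onto C57BL/6 for several generations. Which strain the targeted chromosome came from is not stated, so it is not known whether the flanking alleles differ between the groups. Values are GCRMA values, which are background-corrected intensities on the log2 scale, so that a difference of 1 is a doubling, and differences are always knockout minus control with the standard error (SE) of limma.

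Genes that are neighbours on a chromosome need not share a function, and this stretch holds transporters, kinases, chromatin factors and matrix proteins. What neighbours do share is inheritance: when a locus is changed in embryonic stem cells of 1 strain and the mice are crossed to another, the alleles that flank the locus stay with it until recombination separates them. Neighbouring genes that are read in opposite directions can also share a promoter. The genotype at Ddn and the alleles at loci linked to it cannot be told apart in these 6 mice, since no marker of strain was measured. No probe sequences were at hand, so whether strain variants lie under the probes, as of Cpne8 and Yaf2, was not tested. Higher and lower thus refer to array signal, which such a variant could change without a change in transcript.

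The region before the start of transcription is shown for 3 genes of the stretch with a probe set whose knockout and control values did not overlap, 1 near its far end (Cpne8), 1 that was higher in the knockout mice (Slc2a13) and 1 near Ddn (Ccnt1). Each is 250 bases of RefSeq sequence (GRCm38.p6) from the minus strand, and capitals mark GGGCGG or its reverse complement CCGCCC, the core of the GC box of many promoters without a TATA box. The Cpne8 sequence is chr15:90679389-90679638, that of Slc2a13 chr15:91573262-91573511 and that of Ccnt1 chr15:98567737-98567986.
Cpne8: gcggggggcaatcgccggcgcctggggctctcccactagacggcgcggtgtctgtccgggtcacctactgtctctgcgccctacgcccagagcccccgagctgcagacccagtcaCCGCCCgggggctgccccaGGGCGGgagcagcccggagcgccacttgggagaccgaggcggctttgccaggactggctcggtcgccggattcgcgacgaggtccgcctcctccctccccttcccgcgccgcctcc
Slc2a13: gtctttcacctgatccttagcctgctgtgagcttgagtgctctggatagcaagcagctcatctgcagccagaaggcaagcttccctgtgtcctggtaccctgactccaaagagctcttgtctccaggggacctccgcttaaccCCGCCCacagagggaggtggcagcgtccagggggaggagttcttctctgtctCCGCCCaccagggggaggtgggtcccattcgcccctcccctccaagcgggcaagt
Ccnt1: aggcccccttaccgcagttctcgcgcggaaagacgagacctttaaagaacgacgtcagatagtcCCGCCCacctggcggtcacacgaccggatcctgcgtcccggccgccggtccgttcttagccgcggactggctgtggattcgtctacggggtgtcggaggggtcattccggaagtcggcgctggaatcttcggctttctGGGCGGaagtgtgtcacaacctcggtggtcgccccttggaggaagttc

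Each of the 3 sequences holds 2 copies of the motif, and those of Cpne8 and Ccnt1 hold 28 CpG dinucleotides each, against 6 in that of Slc2a13. RefSeq windows of this kind were found for 31 of the 40 listed genes (46 windows), and Yaf2 and Nell2 were among the genes without one. Some genes gave several windows, and some windows of Pphln1, Senp1 and Pfkm overlap, so the shares below count windows and not genes. GGGCGG, searched on both strands, was in 54.3% of these windows and in 32.7% of all 32851 windows. TATAAA was in 4.35% against 12.4%, CCAAT in 23.9% against 33.8% and CACGTG in 2.17% against 6.02%, each on both strands. The median number of CpG was 16.5 against 6. A match is a run of letters and was not tested as a binding site. Zcrb1 and Pphln1 stand head to head, with RefSeq starts 16 bases apart, and Pus7l and Irak4 do so with starts 153 bases apart.

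In knockout glomeruli the signal of Ddn was at a level that is dim on this array. Ddn (chr15:98803782-98807925, probe set 1436268_at) read 3.80, 3.81 and 3.80 in knockout mice 1, 2 and 3 and 12.22, 12.81 and 12.31 in control mice 1, 2 and 3, a difference of -8.64 (SE 0.18). The groups were far apart, in the direction of the labels. Podocyte genes, of which 6 of 8 listed were found, had means of 12.51 to 15.24. Means of 7 endothelial genes were 9.63 to 14.47, so the labelled tissue showed its defining markers. Knockout means exceeded control means in all 6 podocyte genes (median difference 0.15, and 0.25 without control 2). In 6 of the 7 endothelial genes they fell below them (median difference -0.10, and -0.16 without control 2). Among 6 mesangial and smooth muscle genes, 4 differences were positive and 2 negative, the largest 0.68 (SE 0.24) for Tagln. The part of these lists in the values below was not tested. Control 2 stood apart from the other arrays. Its proximal tubule genes were higher than in the other mice by a median of 1.44 (10 genes) and its genes of later tubule segments, from the loop to the collecting duct, by 2.15 (8 genes), while its 10 leukocyte genes differed by a median of -2.03. Correlations between arrays were 0.973 to 0.995. In whole glomeruli, fewer cells of a type and less RNA per cell cannot be told apart.

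Of the 78 probe sets, 27 were dim, with a mean under log2 4, and 14 of these gave the same value on every array. The remaining 51 probe sets, from 28 genes, carried signal. Names that end in _s_at or _x_at mark probe sets with probes that match more than 1 transcript or may bind other sequences. The study's criterion was a fold over 1.5 with an unadjusted p under 0.05, here from limma. It was passed by 3 probe sets that were lower in knockout glomeruli, 1 of Cpne8 and 2 of Yaf2, where 0.0953% of all 45101 probe sets passed it in that direction. It was passed by 1 that was higher, a dim probe set of Nell2, where 0.0843% of all passed it. The unadjusted p was under 0.05 for 15 of the 78, with 3.63% over all probe sets, and no member had an adjusted p under 0.05 (limma, with Benjamini-Hochberg adjustment over the whole array; the lowest was 0.513, for Yaf2). Signal was present in 65.4% of the 78 but in 43.5% of all probe sets, so the shares rest on unlike sets. Since the members were proposed from this contrast, nothing is read from these shares.

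Knockout and control mice did not overlap in 17 of the 51 probe sets with signal. In 9 of them every knockout mouse lay below every control mouse, where 5.65% of the 19619 probe sets with signal did, and in 8 every knockout mouse lay above, where 8.03% did. With 1 array left out, the lower count ran from 10 to 14, the 14 without knockout 2. The higher count ran from 8 to 14, the 14 without control 3. Fewer mice have to be apart there, and no share over the array is given for it, so nothing is read from the rise. The median difference over the 51 was -0.017, against 0.015 over all probe sets with signal, and the median size of a difference was 0.15 against 0.090. There were 26 lower and 25 higher differences, and 39 of the 51 were within 1.2-fold. The separated genes thus lay on both sides of 0.

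**Figure D1:**
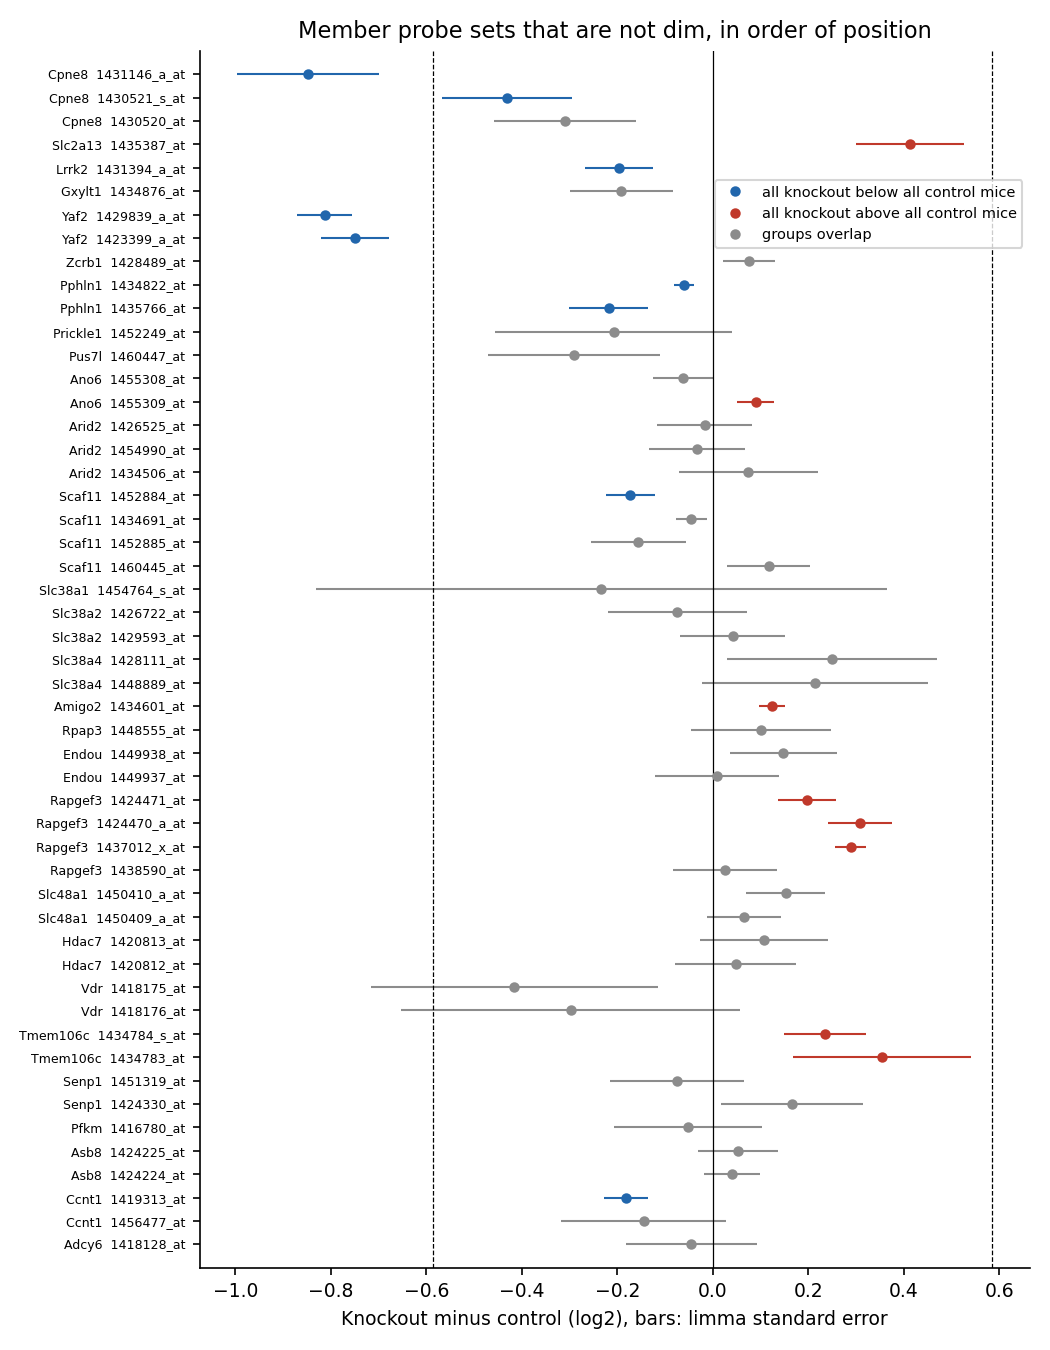
Knockout minus control difference (x axis, log2) of the 51 probe sets with signal, in order of position from Cpne8 at the top to Adcy6 next to Ddn at the bottom. Points are differences and bars the limma standard error, blue where every knockout mouse lay below every control mouse (9), red where every one lay above (8) and grey where the groups overlapped. Dashed lines mark a fold of 1.5, which only 1 probe set of Cpne8 and both of Yaf2 exceed.

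Cpne8 was lower in the knockout mice, and lies at the end of the stretch farthest from Ddn. It encodes a copine, a protein with calcium-dependent C2 domains that binds membrane phospholipids, and its gene spans chr15:90487481-90679388. Probe set 1431146_a_at read 7.39, 7.12 and 7.63 in the knockout mice against 8.21, 8.31 and 8.17 in the controls. The means were 7.38 ± 0.26 (SD, n = 3 mice) and 8.23 ± 0.071 (SD, n = 3), and the difference was -0.85 (SE 0.15), a fold of 1.80. The highest knockout mouse, mouse 3, was still below the lowest control. Probe set 1430521_s_at read 6.54, 6.80 and 6.65 against 7.21, 6.86 and 7.22, a difference of -0.43 (SE 0.14), with control 2 just above knockout 2. Probe set 1430520_at read 6.45, 6.56 and 6.16 against 6.52, 6.73 and 6.85, a difference of -0.31 (SE 0.15), and here control 1 lay between the knockout mice. Without knockout 3 the last difference was -0.19. All 3 probe sets of the gene were lower, by amounts that differed by up to 0.54. Without control 2 the difference of 1430521_s_at was -0.55 and that of 1431146_a_at -0.81.

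Cpne8 was grouped with Kif21a and Twf1 under cytoskeleton and membrane, and Twf1 had no probe set of its own. Kif21a, a kinesin motor of microtubules, had 3 dim probe sets with differences of -0.0094 to 0.079.

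Genes of nuclear and RNA-binding proteins made up a group of 11 genes with 25 probe sets, 20 of them with signal. In 6 of the 20 the knockout mice were all lower than the controls and in none all higher, against 5.65% and 8.03% of all probe sets with signal on the array. Yaf2 (chr15:93283833-93336935), a partner of the transcription factor YY1 and of Polycomb repressive complexes, was lower in the knockout mice with both of its probe sets, which passed the criterion. Probe set 1429839_a_at read 10.87, 10.99 and 11.04 in the knockout mice against 11.79, 11.83 and 11.72 in the controls, means of 10.97 ± 0.089 and 11.78 ± 0.053 (SD, n = 3 each) and a difference of -0.81 (SE 0.058). Probe set 1423399_a_at read 10.70, 10.68 and 10.64 against 11.40, 11.56 and 11.32, means of 10.68 ± 0.034 and 11.42 ± 0.12 (SD, n = 3 each) and a difference of -0.75 (SE 0.071). The groups were apart by several times the spread within either one, the probe sets differed by 0.063 in their differences, and without control 2 these were -0.79 and -0.68.

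Pphln1 and Zcrb1, the head-to-head pair next to Yaf2, had differences of opposite sign. Pphln1 encodes periphilin, a subunit of the HUSH complex that silences retroelements. Its probe set 1435766_at read 6.23, 6.08 and 6.16 in the knockout mice against 6.24, 6.50 and 6.36 in the controls, a difference of -0.22 (SE 0.083). Its probe set 1434822_at read 8.58, 8.63 and 8.57 against 8.65, 8.68 and 8.63, a difference of -0.061 (SE 0.021). Both were separated, the first between knockout 1 and control 1 and the second between knockout 2 and control 3 by a narrow margin. Zcrb1, a protein of the minor spliceosome and 1 of the 3 members with the highest value of a probe set, read 11.44, 11.59 and 11.49 against 11.45, 11.48 and 11.36 with probe set 1428489_at, a difference of 0.076 (SE 0.054) and overlapping groups, and 0.037 without knockout 2.

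Ccnt1, whose product cyclin T1 drives release of paused RNA polymerase, was lower in all knockout mice with probe set 1419313_at. It read 8.80, 8.82 and 8.77 in the knockout mice against 8.90, 9.06 and 8.98 in the controls, a difference of -0.18 (SE 0.046). Its other probe set, 1456477_at, had a difference of -0.14 (SE 0.17) and overlapped. Scaf11, a splicing factor with serine and arginine repeats, read 9.90, 9.91 and 9.75 against 10.01, 10.04 and 10.03 with probe set 1452884_at, a difference of -0.17 (SE 0.052) without overlap. The other 3 probe sets of Scaf11 overlapped, with differences of -0.16, -0.045 and 0.12.

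The remaining nuclear genes overlapped between groups. Arid2, a subunit of the PBAF chromatin remodeller, had differences of -0.033 to 0.074 in 3 probe sets with signal. Those of Hdac7, a class IIa histone deacetylase, were 0.048 and 0.11, and those of Senp1, which removes SUMO from proteins, -0.074 and 0.17. Rpap3, a cochaperone for assembly of RNA polymerase, had a difference of 0.10 (SE 0.15). Pus7l, which resembles pseudouridine synthases, had -0.29 (SE 0.18) in its probe set with signal, and -0.14 without control 2. The homeobox gene Dbx2 gave the same low value on every array.

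Signalling genes had 9 probe sets with signal, of which 1 was separated downwards (5.65% over the array) and 3 upwards (8.03%), the latter all of Rapgef3 (chr15:97744770-97768419). Rapgef3 encodes Epac, the exchange factor through which cyclic AMP activates the small GTPase Rap, and lies 1 to 2 Mb from Ddn. Probe set 1424470_a_at read 10.73, 10.85 and 10.85 in the knockout mice against 10.61, 10.43 and 10.46 in the controls, a difference of 0.31 (SE 0.066). Probe set 1437012_x_at read 10.05, 10.14 and 10.14 against 9.82, 9.84 and 9.80, a difference of 0.29 (SE 0.033). Probe set 1424471_at read 10.82, 11.00 and 10.90 against 10.65, 10.69 and 10.78, a difference of 0.20 (SE 0.061). In each of these the lowest knockout mouse, mouse 1, was above the highest control. The differences stayed under a fold of 1.5. A further probe set with signal, 1438590_at, had a difference of 0.026 (SE 0.11) with overlapping groups, and 1437946_x_at was dim. Adcy6, an adenylyl cyclase that makes cyclic AMP and the listed gene nearest to Ddn, had a difference of -0.045 (SE 0.14) and overlapped.

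Lrrk2, a large kinase with a GTPase domain known from inherited Parkinson disease, read 7.18, 6.97 and 7.02 in the knockout mice against 7.18, 7.30 and 7.27 in the controls with probe set 1431394_a_at. The difference was -0.20 (SE 0.071). Knockout 1 and control 1 were the same to 2 decimals, so the separation there was nominal. Prickle1, of planar cell polarity signalling, had a difference of -0.21 (SE 0.25), which was -0.027 without control 2.

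Vdr, the vitamin D receptor, had a lower mean in the knockout mice, in overlapping groups. Probe set 1418175_at read 7.94, 8.37 and 8.51 in the knockout mice against 8.46, 9.21 and 8.41 in the controls, a difference of -0.42 (SE 0.30). Probe set 1418176_at read 6.97, 7.25 and 7.70 against 7.42, 8.19 and 7.20, a difference of -0.30 (SE 0.35). Control 2 was the highest and knockout 1 the lowest mouse in both, and the groups overlapped. Without control 2 the differences were -0.15 and -0.0032, without knockout 1 -0.25 and -0.13, and without control 3 -0.56 and -0.50. The summed level of the proximal tubule genes, on the log2 scale, ran from 10.98 to 11.65 in the knockout mice and from 10.11 to 12.34 in the controls, with control 2 the highest. The mean was lower in the knockout mice for 9 of the 10 genes, but without control 2 for 2 of them, the other 8 being higher. Their part in the Vdr values was not tested.

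Of the transporters and channels, 10 of 16 probe sets had signal, and 2 were separated, both upwards (8.03% over the array). Slc2a13 (chr15:91267691-91573261), a proton-coupled transporter of myo-inositol, read 5.81, 6.07 and 5.99 in the knockout mice against 5.39, 5.55 and 5.70 in the controls with probe set 1435387_at. The means were 5.96 ± 0.13 and 5.55 ± 0.16 (SD, n = 3 each), and the difference of 0.41 (SE 0.11) was the highest among the members with signal. Every knockout mouse lay above control 3, the highest control, and the difference was 0.41 without control 2 as well. The other separated probe set was 1455309_at of Ano6, a calcium-activated lipid scramblase, with a difference of 0.090 (SE 0.039), while its probe set 1455308_at had -0.062 and overlapped.

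Slc38a1, Slc38a2 and Slc38a4, which import neutral amino acids coupled to sodium, are neighbours about 2 Mb before Ddn. Slc38a1 varied most between mice, with 4.90, 4.55 and 5.33 in the knockout mice against 5.57, 4.02 and 5.89 in the controls with probe set 1454764_s_at. Control 2 was the lowest of all mice there, and differed by -1.71 from the mean of the other controls. The difference was -0.23 (SE 0.60), and -0.80 without control 2. The summed level of the leukocyte genes ran from 14.59 to 15.38 in the knockout mice and from 13.03 to 15.36 in the controls, with control 2 the lowest. All 10 genes had a higher mean in the knockout mice, but without control 2 the direction turned, with 9 of the 10 lower. Their part in the Slc38a1 values was not tested. A dim probe set of Slc38a1, 1415903_at, had a difference of -0.46 (SE 0.33), which without control 2 was -0.77 and past the criterion.

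Slc38a2 read 11.79, 11.39 and 11.31 in the knockout mice against 11.53, 11.62 and 11.56 in the controls with probe set 1426722_at, a difference of -0.074 (SE 0.15). Knockout 1 was the highest and knockout 3 the lowest of all mice, so the groups overlapped fully. Slc38a4 had differences of 0.25 (SE 0.22) and 0.21 (SE 0.24), and of 0.35 and 0.42 without control 2. Slc48a1, which moves heme across endosomal membranes, read 11.42, 11.53 and 11.45 against 11.23, 11.47 and 11.24 with probe set 1450410_a_at, a difference of 0.15 (SE 0.083), where control 2 lay among the knockout mice, and of 0.23 without it. The 4 probe sets of Abcd2, a peroxisomal fatty acid transporter, were dim.

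**Figure D2:**
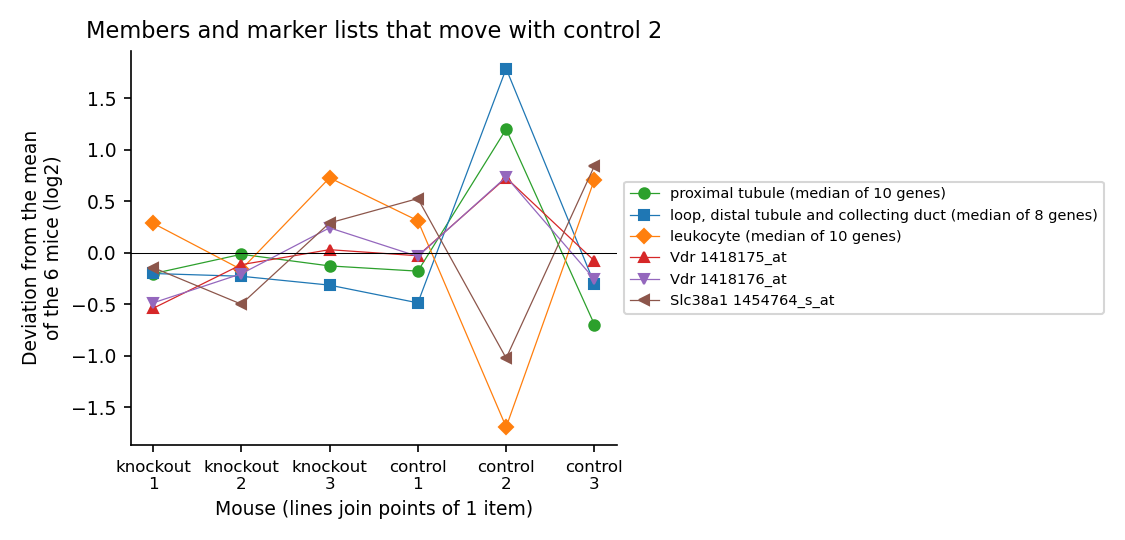
Deviation of each mouse from the mean of the 6 mice (y axis, log2) for the median of 3 marker lists and for 3 member probe sets, with lines joining the points of 1 item. At control 2 both tubule lists and both probe sets of Vdr lie at their highest, from 0.73 to 1.79, and the leukocyte list and Slc38a1 at their lowest, -1.69 and -1.02.

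Genes of adhesion, secreted and matrix proteins were mostly without signal, as 8 of 11 probe sets were dim. Nell2 (chr15:95219440-95528796), a secreted glycoprotein known from neurons, had the only higher call, with probe set 1423561_at. It read 2.94, 3.23 and 3.31 in the knockout mice against 2.20, 2.60 and 2.59 in the controls, a difference of 0.70 (SE 0.17). The groups did not overlap, but every value was dim, control 1 was at the floor of the table and the second probe set, 1423560_at, read 2.20 in all mice. Without control 1 the difference was 0.57 and the criterion was not met, and with 16 added on the unlogged scale it was 0.21. Amigo2, a leucine-rich repeat adhesion protein, read 6.93, 6.90 and 6.84 against 6.76, 6.78 and 6.76 with probe set 1434601_at, a small difference of 0.12 (SE 0.027) without overlap.

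Cntn1, a contactin of nerve cells, read 3.53, 2.78 and 2.26 in the knockout mice against 2.24, 2.24 and 2.26 in the controls with probe set 1449563_at, so that its difference of 0.61 (SE 0.36) came from knockout 1 and 2. Its values were all dim, and without knockout 3 it met the criterion with 0.91. Endou, an RNA-cleaving enzyme that is placed with the secreted proteins here, had differences of 0.0086 and 0.15 in overlapping groups. The protease gene Adamts20 and the cartilage collagen gene Col2a1 gave 1 low value on all arrays.

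Among enzymes and the remaining genes, 6 of 8 probe sets had signal, and the 2 that were separated, upwards (8.03% over the array), were those of Tmem106c (chr15:97963177-97970286), a membrane protein. Probe set 1434783_at read 6.85, 7.08 and 6.84 in the knockout mice against 6.22, 6.74 and 6.75 in the controls, a difference of 0.35 (SE 0.19). Probe set 1434784_s_at read 7.94, 8.15 and 7.95 against 7.67, 7.88 and 7.78, a difference of 0.24 (SE 0.087). Control 1 was the lowest mouse in both, and without it the first difference was 0.18. Gxylt1, which adds xylose to Notch, had -0.19 (SE 0.11), Pfkm, the muscle form of phosphofructokinase, -0.051 (SE 0.16), and the ubiquitin ligase adaptor Asb8 0.052 and 0.040, all in overlapping groups. Tmem117 and Pdzrn4 were dim.

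**Figure D3:**
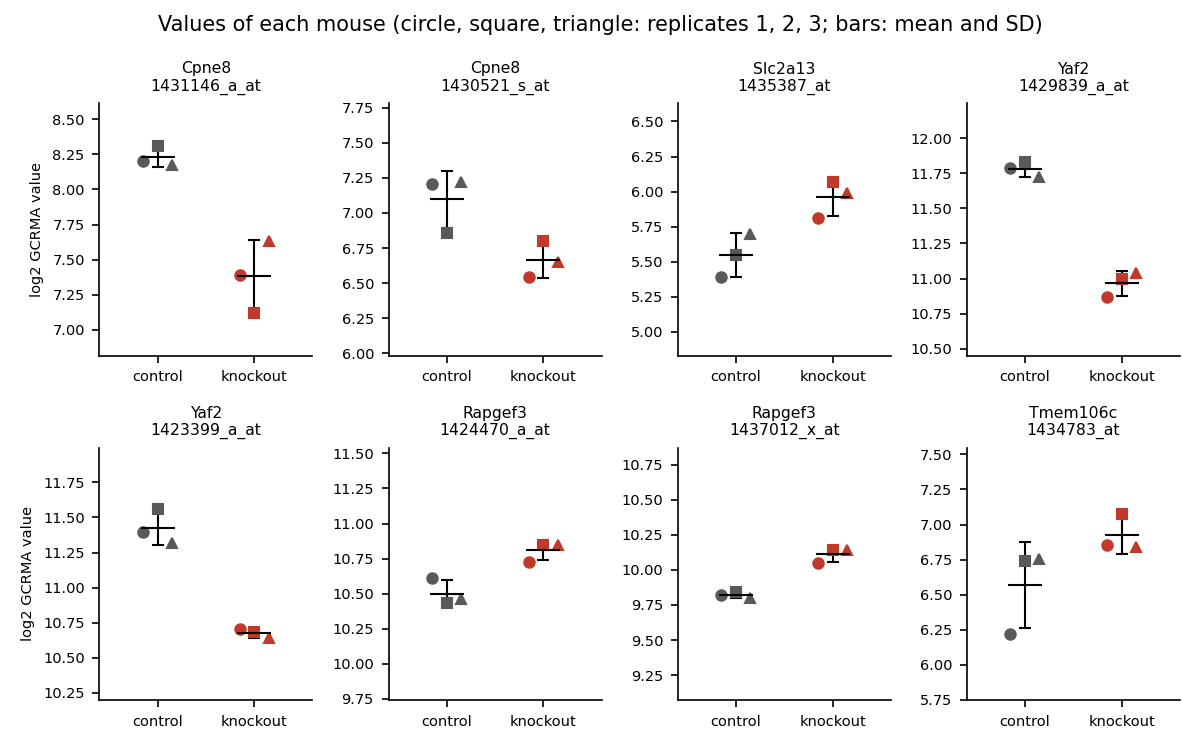
GCRMA value (y axis, log2) of each mouse for the 8 probe sets with signal and the largest differences among those whose groups did not overlap. Grey symbols are controls and red symbols knockout mice, circles, squares and triangles stand for replicates 1, 2 and 3, and bars give the mean and SD of 3 mice. The y axes differ in position and cover the same span of log2 units. Cpne8 and Yaf2 are lower in the knockout mice, Slc2a13, Rapgef3 and Tmem106c higher, and the gap is widest in Yaf2 relative to the spread within the groups.

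The differences were also counted in windows of 1 Mb by the distance of the gene from Ddn. From 1 to 2 Mb before Ddn, all 12 probe sets with signal were higher in the knockout mice (Slc38a4, Amigo2, Rpap3, Endou, Rapgef3 and Slc48a1), with differences of 0.0086 to 0.31, and 4 of them were separated. From 5 to 6 Mb, 6 of 7 were lower (Gxylt1, Yaf2, Pphln1 and Prickle1, with Zcrb1 the exception), and 4 were separated. From 0 to 1 Mb 7 were lower and 7 higher, and from 2 to 3 Mb 8 were lower and 4 higher. Beyond 7 Mb, Slc2a13 was higher and Lrrk2 lower, and the 3 probe sets of Cpne8 were lower. Every listed probe set from 3 to 4 Mb and from 6 to 7 Mb was dim. Of all probe sets with signal on the array, 55.1% were higher, 44.9% lower and 13.7% separated, and since the list was chosen on this contrast nothing is read from the window counts. The counts of the 1 to 2 Mb and 5 to 6 Mb windows were the same with each array centred on its median, with a repeated quantile normalization and with the added offset. With 1 array left out, 9 to 12 of the 12 were higher in the 1 to 2 Mb window, 9 without control 1 and 10 without control 2, where 1449937_at of Endou and 1438590_at of Rapgef3 turned, and 6 of the 7 from 5 to 6 Mb were lower whichever array was omitted. Probe sets of 1 gene share their transcript and are not independent.

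Where several probe sets with signal measured 1 gene, their signs were alike in 12 of 17 genes. The exceptions were Ano6, Arid2, Scaf11, Slc38a2 and Senp1, in which every difference was within 1.2-fold. Counted by the probe set with the highest mean, 17 genes were lower and 11 higher.

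Outside the list, 19 further genes of the stretch had 29 probe sets, of which 4 had signal (Pced1b, Kansl2 and 2 of Ccdc184). Their differences ran from -0.082 to 0.42 and all overlapped between groups. At the far edge, Alg10b, a glycosyltransferase gene 8.58 Mb from Ddn and next beyond Cpne8, had differences of -0.030 and -0.099 in overlapping groups.

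**Figure D4:**
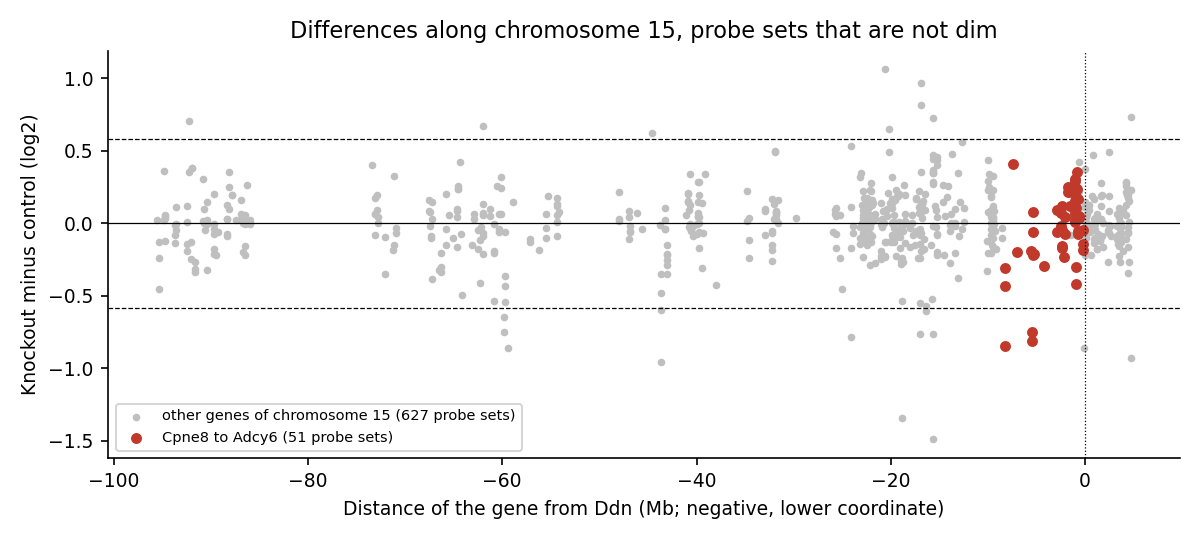
Knockout minus control difference (y axis, log2) of every probe set with signal on chromosome 15 against the distance of its gene from Ddn (x axis, Mb, negative towards lower coordinates). Red points are the 51 probe sets of the listed genes, grey points 627 probe sets of other genes, dashed lines mark a fold of 1.5 and Ddn itself is left out. The listed probe sets past a fold of 1.5 are the 3 of Cpne8 and Yaf2, and grey points past it occur also far from Ddn.

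Other stretches of the same chromosome were set beside these values. In the stretch from Cbx7 to Cyb5r3, 15.65 to 18.9 Mb from Ddn, 22 of 61 probe sets with signal were separated (36.1%), against 33.3% of the 51 described here, and the median size of a difference was 0.17 against 0.15. On the rest of chromosome 15 without Ddn, the Cbx7 stretch included, 17.5% were separated with a median size of 0.11, and on the other chromosomes 13.7% with a median size of 0.089. The list and the Cbx7 stretch were both chosen with these differences known, so the stretch is no independent comparison. These shares are a description and no test was made. The 6 probe sets with signal between Adcy6 and Ddn all overlapped between groups. That of Rnd1 had a difference of -0.86 (SE 1.03), and the others ran from -0.22 to 0.11.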

How the data were processed

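Total RNA of isolated glomeruli was hybridized to Mouse Genome 430 2.0 arrays, 1 per mouse. The authors processed the intensities with GCRMA (version 2.30.0 in the submitters' processing notes), and the deposited values are log2 intensities per probe set after background correction, quantile normalization between arrays and summarization. Scanner intensities were not used here. Samples were grouped by genotype in the labels, with each sample labelled as a biological replicate.

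Probe sets were paired with genes through the platform annotation, with symbols updated by Entrez ID, and placed with RefSeq (GRCm38.p6). The members and lists were chosen with earlier results of these data known. The groups were compared with lmFit and eBayes of limma (version 3.58.1, R 4.3.3) on all 45101 probe sets without filter or covariate, with 4 residual and 0.312 prior degrees of freedom. The procedure was also run on simulated data with independent noise and changes of known size planted in probe sets with signal. That setting has no array that stands apart as control 2 does, and nothing about the members is read from it. Dim means a mean under log2 4. Values per mouse were given for probe sets past the criterion and the other probe sets of those genes, for the 10 largest differences with signal, for the 15 largest without overlap among those with signal, which include some of these, and for the 3 genes with the highest mean, and the other genes by their differences. Pphln1 1434822_at, Slc38a1 and Cntn1 were given per mouse outside this rule, after their values had been seen. Marker levels were summed on the unlogged scale, and the marker counts without control 2 were added after the data had been seen.

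Alternatives were SAM, the test of the study's methods (20 permutations), filters at log2 4 and 6, median centring, repeated quantile normalization, an offset of 16, a replicate block, array weights, a fold over 2, 1 probe set per gene, every gene of the stretch and the omission of each array. The number of arrays limits the precision, and p-values measure only the spread between these mice.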

Additional observations from a re-analysis of the deposited data

How the results depend on the processing

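Of the listed probe sets, 4 met the criterion, and 3 to 5 did when each array was left out in turn, 3 with a filter at log2 4 or 6 or with the offset (without Nell2), 4 with SAM, array weights or other scaling, and 0 with a fold over 2. Without control 2 a dim probe set of Slc38a1 was added, without knockout 3 one of Cntn1, and without control 1 that of Nell2 was lost. The groups did not overlap in 17 probe sets with signal, in 15 to 17 under the filters and scalings, and in 10 with 1 probe set per gene. With 1 array fewer, where fewer mice have to be apart, the count was 18 to 25. No share over the array is given for these settings. The median difference of -0.017 ran from -0.022 to 0.037 over the omitted arrays and was 0.037 without control 3. The same median was 0.0023 with median centring and -0.030 with repeated quantile normalization. With 1 probe set per gene it was -0.056, and with every gene of the stretch 0.0086, so its sign depended on the setting. Of the 23 probe sets given by the rule, the 4 past the criterion kept the sign of their difference under each of the 13 settings that retained them. The dim probe set of Nell2 was removed by the filters at log2 4 and 6, and those of Cpne8 and Yaf2 were retained throughout. The other probe sets given by the rule have no called direction. Among them the difference of Slc38a2, which overlapped, changed sign and was 0.017 without knockout 3.

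The replicate numbers were not taken to pair mice across groups, because the sample titles number the replicates and state no pairs. Same-numbered mice correlated by 0.095, 0.35 and 0.25 in their deviations from the group means, the first being low. Each knockout mouse correlated best with the control of its number, so whether the numbers stand for pairs is not known. With the replicate block, 4 probe sets met the criterion. A low signal limits the 27 dim probe sets, and 3 mice per group limit the rest.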
